A study of Mus musculus with 27 samples.

Results

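The last step of a weight cycle, the return to high-fat diet after a spell of normal diet, was followed in the epididymal fat of C57BL/6N mice, a visceral pad attached to the epididymis and measured as bulk RNA. The step was read from 6 of the 27 libraries of the series, 3 of a regain group against 3 of a loss group, chosen by their labels alone. Loss mice had 8 weeks of a diet with 60% of its energy from fat and then 4 weeks of normal diet, and were 17 weeks old. Regain mice had the same 12 weeks and then 4 weeks of the high-fat diet again, and were 21 weeks old. Both groups had therefore been through a first spell of high-fat diet. The step was compared with a first exposure, in which gain4 mice (12 weeks of normal diet, then 4 weeks of high-fat diet, 21 weeks old) were set against control12 mice (12 weeks of normal diet, 17 weeks old). A normal diet step, control16 mice (16 weeks of normal diet, 21 weeks old) against control12 mice, covered the same weeks without a change of diet. Levels of the gain8 group (8 weeks of high-fat diet, 13 weeks old) are given where they help. Every group had 3 libraries. The labels do not say whether these came from different mice, and p-values measure the spread between libraries, which may be technical.

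White fat stores energy as triglyceride and releases it on demand, and it sends out hormones such as leptin in step with its lipid stores. In obesity the epididymal pad takes up macrophages that ring dying adipocytes, and load themselves with lipid. Lymphocytes, antigen-presenting cells and dividing macrophages and stromal cells are also part of the inflamed pad.

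The libraries of the groups compared held between 26996378 and 32728594 counts, and 17821 genes were tested. Levels are counts scaled to library size and composition (CPM) and are given in the order of replicates 1, 2 and 3. Differences are log2 fold changes, regain minus loss, ± the standard error (SE) of edgeR's fit with n = 3 per group, and p-values are adjusted over all genes tested. Loss replicate 1 stood apart from the other loss libraries: the 20 adipocyte identity genes had a mean log2 CPM of 8.53 there against 10.13 and 9.77, and the 24 lipid-associated macrophage genes of 9.78 against 8.41 and 8.52. Results are therefore given with and without it. In bulk tissue, fewer cells of a type and less RNA per cell cannot be told apart. Lars2, a gene that can collect reads of ribosomal RNA, was at 116 CPM in loss replicate 2 and 172 CPM in regain replicate 1 and between 1971 and 2850 CPM in the other 4 libraries, so that each group held 1 low library.

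No gene passed an adjusted p of 0.05 between regain and loss in edgeR's quasi-likelihood test, and the smallest adjusted p was 0.108. At an unadjusted p under 0.05 there were 1407 genes, 859 higher after re-feeding (4.82% of genes tested) and 548 lower (3.08%). DESeq2 on the same model called 174 genes, 145 higher (0.822%) and 29 lower (0.164%). That count includes extreme DESeq2 differences on both sides, among them Ighv2-9-1 (23.5), Odf1 (16.2), Tmprss2 (-17.1) and Tnp1 (-15.4). Odf1 and Tnp1 belong to the list of epididymis and sperm genes. Without loss replicate 1, edgeR again called 0 genes. The regain libraries all lay above the loss libraries for 986 genes (5.53%) and all below them for 967 (5.43%). By contrast the first exposure called 1434 genes higher (8.05%) and 1053 lower (5.91%). Their total dropped to 678 without control12 replicate 3, 953 without control12 replicate 2 and 1273 without gain4 replicate 2. Control12 replicate 3 also held transcripts of the neighbouring efferent ducts, and their part in the drop was not tested. What follows is therefore a description of levels and of the direction shared by lists of genes, not of called genes.

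A few acute-phase genes, Hp, Saa3 and Lcn2 among the 16 listed, lay wholly above loss after re-feeding. Hp (chr8:109575128-109579172, GRCm38), the plasma haemoglobin-binding protein haptoglobin, stood at 1368, 1862 and 1163 CPM in the loss libraries and at 8049.5, 4946 and 3738 CPM in the regain libraries. Every regain library was above every loss library, and the difference was 1.93 ± 0.44 (adjusted p = 0.125, and a difference of 1.88 without loss replicate 1). Saa3 (chr7:46711998-46715700), a serum amyloid A protein made by fat and macrophages, was at 6.74, 9.14 and 2.81 CPM against 209, 83.4 and 36.8 CPM. The groups did not overlap, and the Saa3 difference was 4.14 (95% interval 2.07 to 6.21, adjusted p = 0.143). For comparison, gain8 libraries held 7666 to 10955 CPM of Hp and 149 to 339 CPM of Saa3, and control12 libraries 835 to 1574 CPM of Hp and 0.993 to 5.90 CPM of Saa3. Lcn2, the siderophore-binding lipocalin 2, was at 2.90, 2.82 and 2.28 CPM against 36.7, 14.6 and 10.2 CPM, again with no overlap, while control12 replicate 3 held 91.5 CPM. Over the 16 acute-phase genes the median difference was 0.50, with 5 below 0 in their difference. At an unadjusted p under 0.05, 4 were higher (background 4.82%) and 0 lower (3.08%), and 3 lay wholly above loss (5.53%). The median was 0.16 without loss replicate 1, 0.96 without loss replicate 2 and -0.02 over all genes tested.

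Leptin lay on the same side within a wide spread. Lep, the satiety hormone, was at 1086, 2216 and 1645 CPM in loss and 4000.2, 3078 and 2394 CPM in regain. All 3 regain libraries were higher, yet the difference of 0.94 ± 0.64 has a 95% interval from -0.40 to 2.27. Tph2, a tryptophan hydroxylase of serotonin synthesis, stood at 5.10, 30.3 and 2.75 CPM against 191, 64.5 and 54.9 CPM. Cck, the gut and brain peptide cholecystokinin, was at 0.140, 0.269 and 0 CPM against 9.10, 1.39 and 3.12 CPM. Both were also high in gain8 (155 to 337 CPM of Tph2, 3.20 to 20.9 CPM of Cck) and low in control12 (0.479 to 1.63 CPM of Tph2). The very low-density lipoprotein receptor gene Vldlr, which takes up triglyceride-rich particles, was at 45.8, 104 and 69.3 CPM in loss and 130, 143 and 129 CPM in regain, with no overlap.

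For genes of the mature adipocyte the direction depended on which loss libraries were kept. The 20 adipocyte identity genes had a median difference of -0.21. At an unadjusted p under 0.05, 0 were higher (background 4.82%) and 2 lower (3.08%). The median was -0.50 without loss replicate 1 (0 higher against a background of 5.96%, 5 lower against 3.41%). Without loss replicate 2 the same median was 0.29, on the other side of 0. Adrb3, the adrenergic receptor that starts lipolysis in fat cells, was at 128, 274 and 395 CPM in loss and 29.1, 118 and 130 CPM in regain. Only the lowest loss library overlapped the regain range, and the difference was -1.53 ± 0.48 (adjusted p = 0.292). Pck1, the enzyme that makes glycerol phosphate for triglyceride, stood at 318, 2147 and 896 CPM against 359, 419 and 503 CPM. Its 2 higher loss libraries lay above all regain libraries while loss replicate 1 lay below them, and control12 libraries held 2654 to 6080 CPM. Timp4, an inhibitor of matrix proteases made by adipocytes, was at 72.2, 258 and 314 CPM against 65.2, 103 and 54.1 CPM. Agt, the angiotensin precursor, was at 44.7, 108 and 167 CPM against 28.3, 68.3 and 25.8 CPM. The insulin receptor gene Insr was at 74.7, 110 and 134 CPM against 71.6, 91.7 and 81.1 CPM, where control12 libraries held 180 to 187 CPM. Neither group of cycled libraries reached the control level of Insr or Pck1.

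Adiponectin and lipogenic genes did not separate the groups. Adipoq was at 764, 3181 and 1937 CPM in loss and 1940, 1772 and 1251 CPM in regain, a difference of -0.25 ± 0.43 with a 95% interval from -1.15 to 0.66. Fasn, the fatty acid synthase, was at 243, 1739 and 600 CPM against 812, 801 and 717 CPM, and its interval ran from -2.17 to 1.88. Over the 19 de novo lipogenesis genes the median was -0.14 (-0.27 to 0.17 when 1 library was left out), with 0 higher and 0 lower at an unadjusted p under 0.05. The mitochondrial lists leaned up by small amounts. All 35 nuclear genes of oxidative phosphorylation had a positive difference (median 0.21, range when 1 library was left out 0.13 to 0.35). So had 20 of 21 citrate cycle genes (median 0.23) and 16 of 18 genes of fatty acid oxidation (median 0.27), against 47.6% of all genes tested. At an unadjusted p under 0.05, 0, 1 and 3 genes of these lists were higher (background 4.82%) and 0 lower (3.08%). Wholly above loss were 3, 5 and 0 (5.53%). Without loss replicate 1 the 3 medians were 0.13, 0.13 and 0.16, and with regain replicate 3 also left out they were 0.14, 0.03 and 0.03. The 13 genes of the mitochondrial genome all had a positive difference too (median 0.26), with 0 wholly above loss, while their median in the first exposure was -0.69. Sucla2, a succinyl-CoA ligase subunit, was at 76.2, 110 and 92.6 CPM against 150, 130 and 140 CPM, with no overlap. These genes share libraries and composition scaling, so the shared sign is not 35 separate observations.

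**Figure D1:**
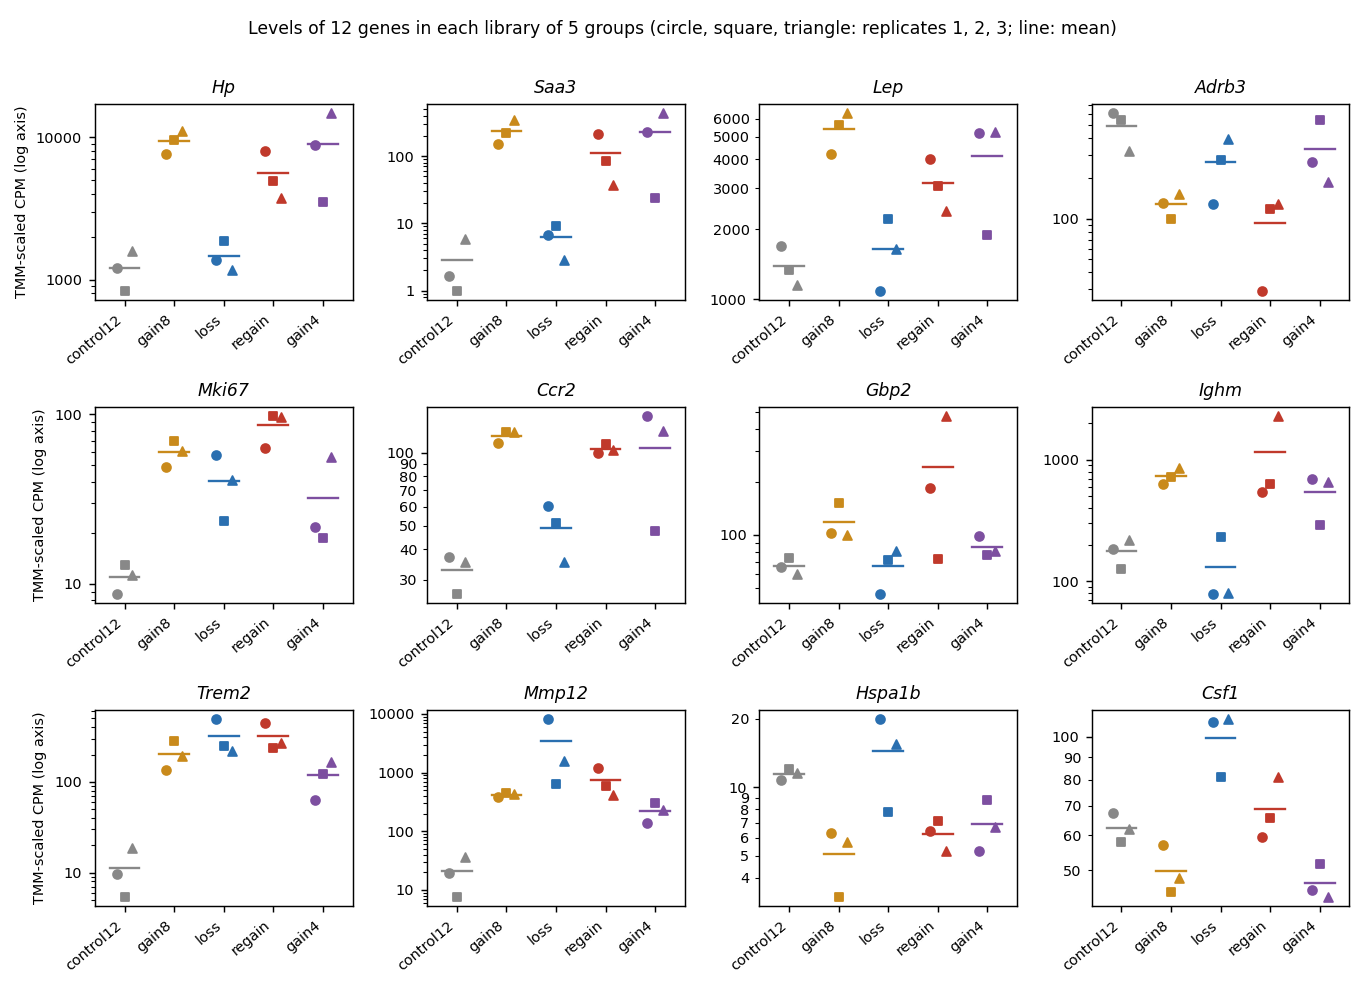
TMM-scaled CPM (log axis) of 12 genes in the 3 libraries of control12, gain8, loss, regain and gain4, with the group mean as a line and replicates 1, 2 and 3 as circle, square and triangle. Hp, Saa3, Lep, Ccr2 and Ighm lie higher in all 3 regain libraries than in any loss library, Trem2 does not separate the groups, and Gbp2 is high in regain replicates 1 and 3 only.

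Genes of cell division had positive differences throughout. All 34 cell cycle genes tested had a positive difference, with a median of 0.95. At an unadjusted p under 0.05, 20 were higher (background 4.82%) and 0 lower (3.08%). Regain lay wholly above loss for 12 of them (background 5.53%). The list summed to 933, 404 and 623 CPM in loss and 779, 1090 and 1169 CPM in regain, against 225 to 251 CPM in control12, so loss replicate 1 lay inside the regain range. Without that library the median was 1.21 and 31 of 34 were higher at an unadjusted p under 0.05 (background 5.96%). The median was 0.60 without loss replicate 2. Without regain replicate 3, 16 were (background 2.96%), 0 were lower (2.36%) and the median was 0.82. Mki67, the nuclear protein of cycling cells, was at 57.2, 23.7 and 40.8 CPM against 63.7, 97.7 and 96.9 CPM (1.09 ± 0.37, adjusted p = 0.351). Birc5, the chromosome passenger survivin, was at 9.43, 7.53 and 9.10 CPM against 14.1, 18.3 and 21.9 CPM. Bub1b, a spindle checkpoint kinase, was at 12.4, 8.80 and 12.9 CPM against 16.2, 26.5 and 26.9 CPM. All 3 were above their control12 level in loss already, where control12 libraries held 8.75 to 12.9 CPM of Mki67. In the first exposure 19 of the 34 genes rose (background 8.05%) with a median of 1.23. The difference between the 2 steps called 0 genes of the list, and 0 were higher and 2 lower at an unadjusted p under 0.05 (background 5.87% and 6.54%).

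Ube2c (chr2:164769898-164778822), the ubiquitin-conjugating enzyme of the anaphase-promoting complex, had the smallest p of the list at 9.71, 5.34 and 9.36 CPM against 9.62, 21.7 and 19.1 CPM (1.05 ± 0.28, adjusted p = 0.186). Regain replicate 1 lay within the loss range and the other 2 far above it. Its promoter is shown because members of this list lay in the same direction together and because the cell cycle homology region, TTTGAA or TTCGAA, is the element known from promoters of such genes. The window spans 250 bases before to 50 after the start (chr2:164769679-164769978, plus strand, RefSeq, GRCm38.p6), and capitals mark the match, which reads TTTGAA on the other strand.

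Ube2c: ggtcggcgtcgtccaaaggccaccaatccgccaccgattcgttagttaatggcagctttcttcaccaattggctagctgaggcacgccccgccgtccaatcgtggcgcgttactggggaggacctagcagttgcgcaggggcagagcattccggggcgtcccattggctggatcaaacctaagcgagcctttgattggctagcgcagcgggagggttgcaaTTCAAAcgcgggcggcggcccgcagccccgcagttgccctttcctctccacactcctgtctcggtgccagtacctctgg

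Of the 27 cell cycle genes with a promoter in the RefSeq table, 14 (51.9%) held TTTGAA or TTCGAA on either strand, against 19.4% of all 27025 promoters of this length. The match is a description of letters and says nothing of what bound there. For 2 other lists the share was 5 of 16 clock genes (31.2%, all promoters 7.24%) with CACGTG, and 0 of 20 heat shock and immediate early genes (all promoters 5.17%) with TGACTCA.

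For interferon-induced and T cell genes the regain libraries split. All 25 interferon-induced genes had a positive difference (median 0.84). At an unadjusted p under 0.05, 16 were higher (background 4.82%) and 0 lower (3.08%), but regain lay wholly above loss for only 3 (5.53%). The list summed to 449, 575 and 552 CPM in loss and 929, 525 and 1761 CPM in regain, so regain replicate 2 stood among the loss libraries. Without regain replicate 3 the median was 0.53 and 4 were higher at an unadjusted p under 0.05 (background 2.96%). Without loss replicate 1 the median was 0.81, and in the normal diet step it was 0.44. Gbp2 (chr3:142620602-142638008), a guanylate-binding GTPase of cell-autonomous defence, was at 46.2, 72.2 and 80.3 CPM against 185, 73.2 and 472 CPM (1.88 ± 0.39, adjusted p = 0.125). Cxcl9, a chemokine that attracts activated T cells, was at 9.40, 37.1 and 32.6 CPM against 142, 28.7 and 381 CPM (2.80 ± 0.62, adjusted p = 0.125). For both genes regain replicate 3 was highest, replicate 1 next and replicate 2 within the loss range. DESeq2 called 5 interferon-induced genes higher (background 0.822%), among them Cxcl10, Gbp2, Gbp3 and Zbp1. EdgeR without regain replicate 2 called 8 higher (background 0.549%) and 0 lower (0.0109%). Gbp2 and Gbp3 belong to a cluster of similar genes, so reads may be divided between them unevenly.

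Promoters of Gbp2 (chr3:142620413-142620712) and Gbp3 (chr3:142559794-142560093), both on the plus strand, are shown because these neighbours had the same order of libraries and both were called by DESeq2. Capitals mark TTTC, any 2 bases and TTTC, the core of the interferon-stimulated response element (RefSeq, GRCm38.p6, the same window as above).

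Gbp2: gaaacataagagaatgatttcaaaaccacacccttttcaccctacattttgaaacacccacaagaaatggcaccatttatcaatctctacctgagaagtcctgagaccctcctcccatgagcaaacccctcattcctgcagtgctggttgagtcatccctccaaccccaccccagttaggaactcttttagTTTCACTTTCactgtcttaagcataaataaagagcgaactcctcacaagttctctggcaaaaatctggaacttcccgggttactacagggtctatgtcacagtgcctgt

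Gbp3: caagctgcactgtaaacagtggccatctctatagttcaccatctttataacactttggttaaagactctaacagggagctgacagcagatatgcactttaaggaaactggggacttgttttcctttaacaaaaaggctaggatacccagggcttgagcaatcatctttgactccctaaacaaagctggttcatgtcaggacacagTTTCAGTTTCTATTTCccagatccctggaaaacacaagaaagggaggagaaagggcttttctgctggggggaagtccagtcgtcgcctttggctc

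That core was found, on either strand, in 13 of 19 interferon-induced genes with a promoter in the table (68.4%), against 3.49% of all promoters. The gamma-activated element TTCNNNGAA was found in 3 of 19 (15.8%), against 8.47%. These 2 motifs were chosen after the levels had been seen, and the genes were listed because they are known interferon targets.

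Among lymphocyte genes the same 2 libraries led. The 22 T and NK cell genes had a median difference of 1.48, and summed to 36.4, 42.6 and 51.2 CPM in loss and 85.1, 40.2 and 208 CPM in regain. At an unadjusted p under 0.05, 14 were higher (background 4.82%) and 0 lower (3.08%). Without regain replicate 3 the median was 0.55 and 3 were higher at an unadjusted p under 0.05 (background 2.96%). In the normal diet step over the same weeks the median of these genes was 0.90, and 1 gene had the higher difference in re-feeding than in that step at an unadjusted p under 0.05 (background 2.45%) and 0 the lower (1.16%). Cd4, the helper T cell co-receptor, which is not confined to T cells, was at 1.92, 1.48 and 1.52 CPM against 3.82, 3.05 and 17.3 CPM. Cd3d, a T cell receptor subunit, was at 0.769, 1.04 and 0.628 CPM against 5.39, 0.709 and 7.02 CPM. Regain replicate 2 lay within the loss range for Cd3d and above it for Cd4. In the difference from the first exposure, Cd4 stood at 3.19 ± 0.79 (adjusted p = 0.165).

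B and plasma cell genes lay higher by sum in each of the 3 regain libraries. Regain lay wholly above loss for 13 of the 20 genes tested (background 5.53%) and wholly below for 1, with a median of 1.63 that ran from 1.29 to 1.87 when 1 library was left out. The list summed to 513, 510 and 458 CPM in loss and 984, 1031 and 3641 CPM in regain, and control12 libraries held 464 to 666 CPM. By mean log2 CPM, which weights low genes more, control12 replicate 3 stood at 3.16, between regain replicates 1 and 3 at 2.88 and 3.39. Ighm (chr12:113418558-113422730), the constant region of immunoglobulin M, was at 78.9, 232 and 80.0 CPM against 541, 639 and 2300.1 CPM (3.16 ± 0.61, adjusted p = 0.108). Igkc, the kappa light chain, was at 6.04, 6.85 and 14.1 CPM against 79.1, 38.4 and 829 CPM (5.13 ± 1.03, adjusted p = 0.112). Igj, the joining chain of secreted immunoglobulin, was at 1.68, 1.78 and 3.47 CPM against 28.2, 9.40 and 170 CPM. For all 3 genes regain replicate 3 held several times the level of the other regain libraries, which still lay above every loss library. The gene wholly below loss was Xbp1, a factor of plasma cells that other secretory cells also use, at 216, 172 and 254 CPM against 145, 170 and 170 CPM. Ighm was already at 631 to 852 CPM in gain8, whereas Igkc there was at 7.21 to 13.4 CPM, within the loss range. Immunoglobulin genes are near-identical copies of one another in places, and their reads may be divided between members.

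Small lymph nodes can lie within fat, so their markers were read beside the lymphocytes. The 7 genes of lymph node stroma and follicles summed to 2.66 to 5.01 CPM in loss and 9.78 to 38.3 CPM in regain, against 7.97 to 52.8 CPM in control12, and Glycam1, an adhesion ligand of node vessels, was at 0 in all 6 libraries. Cxcl13, the B cell follicle chemokine, was at 0.0699, 0.403 and 0.265 CPM against 21.1, 0.647 and 3.27 CPM, highest in regain replicate 1 and not in replicate 3. Red cell genes were higher too: the 8 tested had a median of 1.26 and all 8 lay wholly above loss (background 5.53%). They summed to 193 to 583 CPM in loss against 669 to 1254 CPM in regain. Control12 libraries held 1159 to 2149 CPM of the same genes, so every loss library lay below control12. Nerve and Schwann cell genes also lay highest in regain replicate 3, at a mean log2 CPM of 0.41, 0.83 and 2.22 in regain and 0.09, 0.23 and -0.02 in loss. Of the 8 tested (median 1.18, and 0.45 without regain replicate 3), 3 were wholly above loss (background 5.53%). The part of node, blood or nerve content in the lymphocyte values was not tested.

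Genes of antigen presentation showed the same order of regain libraries. All 12 MHC class II genes had a positive difference (median 1.24). At an unadjusted p under 0.05, 9 were higher (background 4.82%) and 0 lower (3.08%), and regain lay wholly above loss for 3 (5.53%). The median was 0.80 without regain replicate 3 and 0.99 without loss replicate 1, and 0.69 with 3 higher when both were left out. H2-DMa, which loads peptides, was at 27.9, 50.9 and 36.9 CPM against 73.7, 48.9 and 143 CPM (1.20 ± 0.28, adjusted p = 0.139). Ciita, the master activator of these genes, was at 15.4, 24.02 and 18.7 CPM against 47.5, 28.0 and 114 CPM. Xcr1, a chemokine receptor of cross-presenting dendritic cells, was at 1.99, 1.81 and 1.65 CPM against 4.42, 2.68 and 8.35 CPM. Ciita and Xcr1 did not overlap between groups, and replicate 3 was again the highest and replicate 2 the lowest of the regain libraries. The dendritic cell list of 14 genes that holds Xcr1 had a median of 0.38, and 0.35 in the normal diet step. Of its members 11 had a positive and 3 a negative difference. At an unadjusted p under 0.05, 3 were higher (4.82%) and 0 lower (3.08%).

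**Figure D2:**
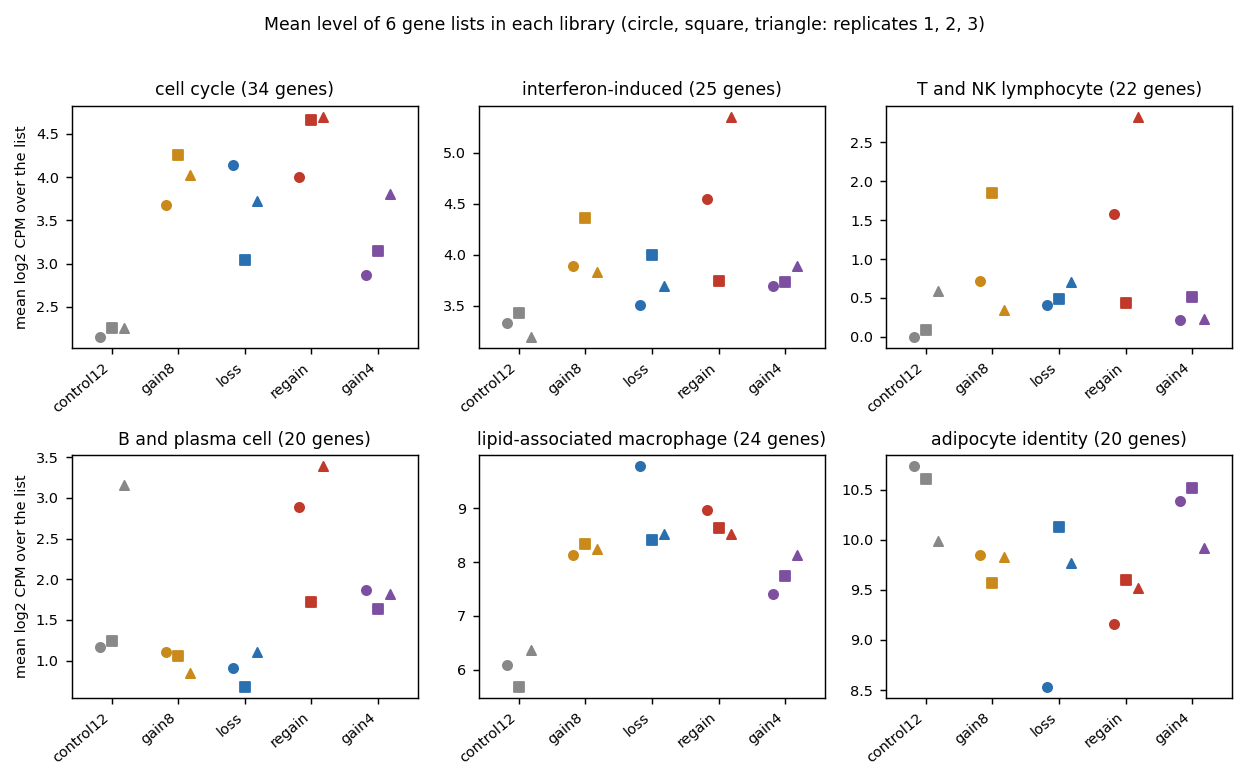
Mean log2 CPM over 6 gene lists in each library of 5 groups, with replicates 1, 2 and 3 as circle, square and triangle. Regain replicate 3 is highest for interferon-induced and both lymphocyte lists and regain replicate 2 is the lowest of its group there, while loss replicate 1 is highest for lipid-associated macrophage genes and lowest for adipocyte identity genes.

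Macrophage genes of the crown-like, lipid-loaded kind were already high in loss, and none of the list was higher after re-feeding at an unadjusted p under 0.05. The 24 lipid-associated macrophage genes had a median difference of -0.27 (1 lower, background 3.08%), 0.32 without loss replicate 1 and -0.47 without loss replicate 2. Trem2, the lipid receptor that marks these cells, was at 492, 251 and 219 CPM in loss and 444, 236 and 269 CPM in regain, with a 95% interval for the difference from -1.32 to 1.28. Control12 libraries held 5.42 to 18.5 CPM of Trem2, so every cycled library lay above them. Gpnmb, a lysosomal glycoprotein of lipid-laden macrophages, was at 7246, 1316 and 1953 CPM against 1928, 1687 and 1286 CPM. Mmp12, the macrophage elastase, was at 8206, 646 and 1585 CPM against 1209.5, 593 and 418 CPM (-2.23 ± 0.82, adjusted p = 0.411, and -0.59 without loss replicate 1). Loss replicate 1 held the highest value of Mmp12 and of Gpnmb by a wide margin. Cd68, a macrophage lysosomal glycoprotein, was at 1065, 469 and 454 CPM against 660, 531 and 614 CPM. Over the 30 lysosome genes the median was -0.07, and from -0.22 to 0.30 when 1 library was left out, the highest being without loss replicate 1.

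The first exposure started from lower levels of these genes. There 15 of the 24 lipid-associated macrophage genes rose (median 1.27), as did 13 of 24 pan-macrophage genes (median 1.48) and 12 of 30 lysosome genes. The share of all genes tested that rose in that exposure was 8.05%. In the test of the difference between the 2 steps no gene passed the adjustment. At an unadjusted p under 0.05, 17 lipid-associated macrophage genes, 13 pan-macrophage genes and 16 lysosome genes had the lower difference in re-feeding (background 6.54%) and 0 the higher (5.87%). Trem2 differed by -3.41 ± 0.92 between the steps (adjusted p = 0.181) and Mmp12 by -5.65 ± 1.19 (adjusted p = 0.0989). These counts and differences include loss replicate 1, where the lipid-associated list summed to 55600 CPM against 23290 and 23020 CPM in the other loss libraries. Without that library the re-feeding medians of the 3 lists were 0.32, 0.73 and 0.30, against -0.27, 0.19 and -0.07 with it. The contrast between the steps is therefore larger with loss replicate 1 than without it. Trem2 was at 63.3, 124 and 166 CPM in gain4, below every loss and regain library.

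Genes of monocyte entry and macrophage activation were mixed in direction. Of 23 monocyte chemokine and receptor genes 15 had a positive and 8 a negative difference (median 0.19, and 0.83 without loss replicate 1). At an unadjusted p under 0.05, 8 were higher (background 4.82%) and 1 lower (3.08%). Wholly above loss were 2 (5.53%) and wholly below 3 (5.43%). Without loss replicate 1, 9 were higher (5.96%) and 0 lower (3.41%). In the normal diet step the list's median was 0.50, with 5 higher (1.05%) and 0 lower (2.68%) at that threshold. Of 24 pan-macrophage genes 15 had a positive and 9 a negative difference (median 0.19, and 0.73 without loss replicate 1), with 2 wholly above loss (5.53%) and 0 below (5.43%). At an unadjusted p under 0.05, 3 were higher (4.82%) and 1 lower (3.08%), and 8 and 0 without loss replicate 1 (5.96% and 3.41%). Ccr2, the receptor by which monocytes enter tissue, was at 60.2, 51.4 and 35.5 CPM in loss and 99.8, 108 and 103 CPM in regain (1.08 ± 0.28, adjusted p = 0.176). The regain values were tight and wholly above loss, and gain8 libraries held 109.8 to 122 CPM. Ccl8, a monocyte chemokine, was at 18.7, 4.27 and 5.23 CPM against 81.5, 13.2 and 169 CPM. Ccl2, the main ligand of Ccr2, was at 88.8, 25.1 and 40.7 CPM against 58.0, 60.9 and 55.6 CPM. Aif1, an actin-binding protein of macrophages, was at 11.2, 10.7 and 10.02 CPM against 50.7, 11.3 and 57.6 CPM, and Fcgr1, the high-affinity IgG receptor, at 31.9, 25.4 and 21.7 CPM against 67.8, 32.2 and 109 CPM. Aif1 in regain replicate 2 stood barely above loss. Among resident macrophage genes, Clec10a, a galactose-type lectin, was at 94.3, 80.8 and 97.5 CPM against 148, 135 and 239 CPM. The list of 18 had a median of 0.47, with 5 wholly above loss (background 5.53%). That median was 0.18 without loss replicate 1 and 0.27 without regain replicate 3, and 0.44 in the normal diet step. Csf1, the growth factor of macrophages, was at 108, 81.2 and 110 CPM in loss and 59.4, 65.7 and 81.0 CPM in regain (-0.54 ± 0.15, adjusted p = 0.233). Every regain library was below every loss library, narrowly so for the nearest pair, and control12 libraries held 57.9 to 67.2 CPM, below every loss library.

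Stress genes lay lower in regain. In the list of 24 heat shock and immediate early genes, 23 had a negative difference (median -0.42), 7 were lower and 0 higher at an unadjusted p under 0.05 (background 3.08%), and regain lay wholly below loss for 7 (5.43%). The median was -0.29 without loss replicate 1 and -0.67 without loss replicate 2. Hspa1b, an inducible heat shock protein of the Hsp70 family, was at 20.0, 7.76 and 15.4 CPM against 6.40, 7.12 and 5.24 CPM (-1.20 ± 0.32, adjusted p = 0.183). Its near-identical neighbour Hspa1a was at 11.6, 5.01 and 8.90 CPM against 2.21, 3.61 and 3.60 CPM, and their reads may be divided unevenly. Dnajb1, a co-chaperone, was at 55.7, 37.7 and 58.7 CPM against 31.0, 37.1 and 37.6 CPM. Fosl1, a subunit of the AP-1 factor, was at 14.7, 6.05 and 6.65 CPM against 4.75, 3.98 and 4.30 CPM. No regain library overlapped loss for these 4, although loss replicate 2 came close for each heat shock gene.

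Most clock genes also had a negative difference, but few separated the groups. The 19 had a median of -0.51, with 15 below 0 and 1 lower at an unadjusted p under 0.05 (background 3.08%). Regain lay wholly below loss for 1 of them (5.26%), near the 5.43% of all genes. The median was -0.29 without loss replicate 3 and -0.74 without loss replicate 2. Per2, a period gene of the circadian clock, was at 25.4, 13.8 and 49.1 CPM against 4.87, 17.2 and 13.2 CPM, with overlap. In the normal diet step the clock median was -0.36. Of matrix proteases, Mmp19 was at 434, 155 and 147 CPM against 108, 134 and 94.4 CPM and Mmp11 at 83.4, 69.8 and 89.9 CPM against 61.6, 22.2 and 22.1 CPM, both without overlap. The list of 19 had a median of -0.34, with -0.06 without loss replicate 1 and -0.62 without loss replicate 2. Collagen and other matrix genes (29) had a median of 0.13 (-0.03 to 0.29 when 1 library was left out) with 0 higher and 0 lower at an unadjusted p under 0.05. Pi16, a marker of fibroblast progenitors, was at 39.2, 25.7 and 26.2 CPM against 87.9, 49.8 and 68.7 CPM.

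**Figure D3:**
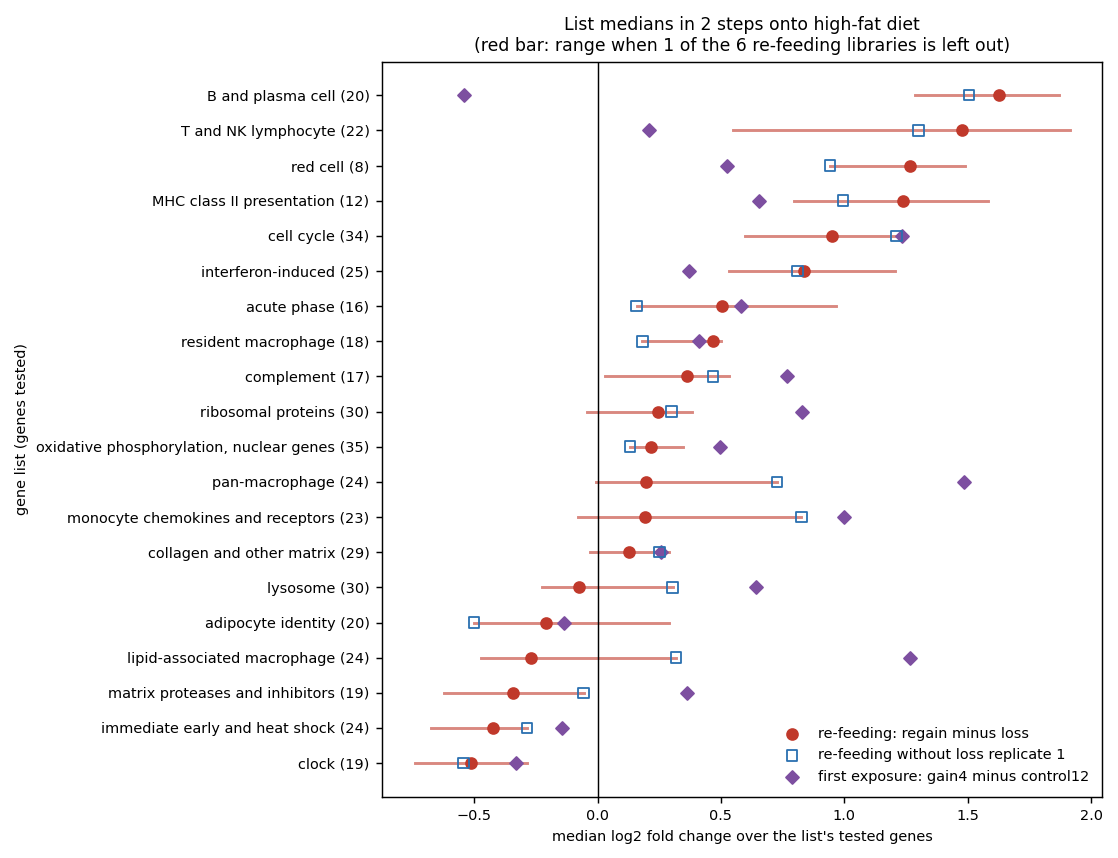
Median log2 fold change of 20 gene lists in the re-feeding step (red circles, with the range when 1 of the 6 libraries is left out), in the same step without loss replicate 1 (open squares) and in the first exposure (purple diamonds). The T and NK and the B and plasma cell lists lie at 1.48 and 1.63 in re-feeding and at 0.21 and -0.54 in the first exposure, and the lipid-associated and pan-macrophage lists at -0.27 and 0.19 in re-feeding and at 1.27 and 1.48 in the first exposure.

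Whether re-feeding repeated the first exposure was read from genes chosen on libraries outside the step. The 1434 genes that rose in the first exposure had a median re-feeding difference of 0.18, and 80.6% were above 0, against 47.6% of all genes tested. Of them 12.5% lay wholly above loss and 0.209% wholly below (all genes 5.53% and 5.43%). The 1053 genes that fell had a median of -0.20, 79.1% were below 0, and 17.3% lay wholly below loss. When 1 library was left out the medians ran from 0.06 (without regain replicate 1) to 0.30 (without loss replicate 1) and from -0.25 to -0.11 (without regain replicate 1). Their medians in the first exposure itself were 0.93 and -0.86. In the normal diet step, with no change of diet, they were 0.12 and -0.18, but that step shares the control12 libraries with the first exposure. The 2136 genes that rose over the first 8 weeks of high-fat diet (gain8 against control8, mice of the same age on normal diet, 12% of genes tested) had a re-feeding median of 0.13, and the 1697 that fell (9.52%) one of -0.16. These were 0.35 and -0.24 without loss replicate 1, and ran from 0.05 to 0.35 and from -0.24 to -0.06 when 1 library was left out. The normal diet step, which shares no library with gain8 or control8, had medians of 0.08 and -0.11 for the same genes. Much of the re-feeding shift thus had a like size without a change of diet, and the part of the diet in it was not tested. The re-feeding and first exposure steps share no library, but regain and gain4 were both collected at 16 weeks and loss and control12 at 12 weeks, so anything common to those weeks enters both.

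**Figure D4:**
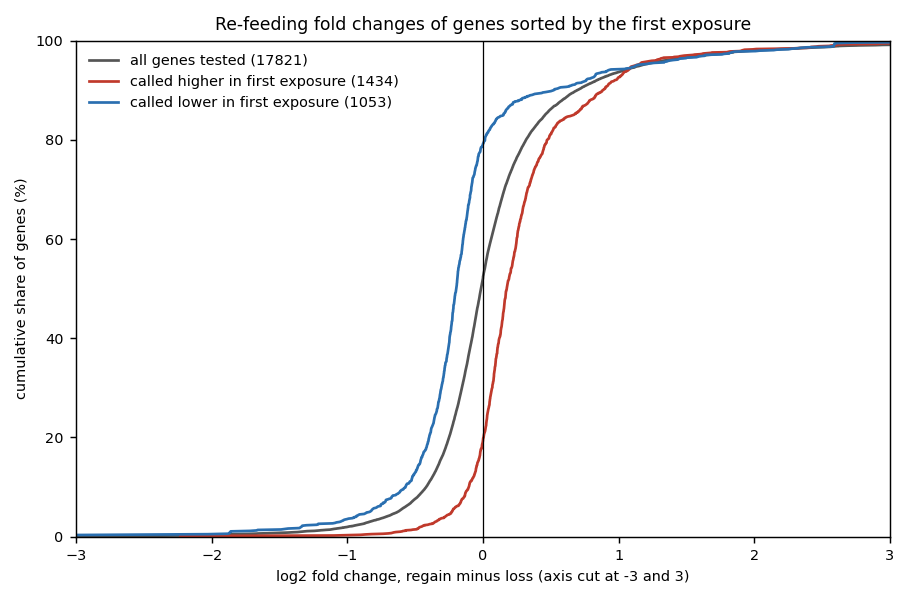
Cumulative share of genes (%) against their log2 fold change from loss to regain, for all 17821 genes tested, the 1434 that rose and the 1053 that fell in the first exposure. The curve of the genes that rose crosses 0 with 19.4% of genes below it, and that of the genes that fell with 79.1% below it.

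Among genes with the smallest p in the difference between the 2 steps, some had opposite signs in them and others were already high in loss. Pla2g2d, a secreted phospholipase of resident macrophages and dendritic cells, was at 1.08, 2.82 and 4.498 CPM in loss, 4.34, 7.71 and 9.17 CPM in regain, 18.8, 20.6 and 18.6 CPM in control12 and 9.47, 5.55 and 8.18 CPM in gain4. The steps ended at like levels from opposite sides, and differed by 2.66 ± 0.46 (adjusted p = 0.0989). Itm2a, a membrane protein of activated T cells and progenitors, was at 1.19, 1.98 and 2.51 CPM in loss and 5.05, 4.07 and 6.45 CPM in regain, against 3.91, 6.64 and 14.7 CPM in control12 and 2.73, 4.58 and 2.39 CPM in gain4 (2.83 ± 0.55, adjusted p = 0.0989). In the other direction Egr2, an early response factor of macrophages, was at 89.4, 26.9 and 35.0 CPM in loss and 39.9, 29.8 and 32.3 CPM in regain, against 2.86, 1.18 and 2.27 CPM in control12 and 8.63, 9.44 and 13.3 CPM in gain4 (-2.88 ± 0.57, adjusted p = 0.0989). F7, coagulation factor VII, was at 70.2, 45.6 and 37.7 CPM in loss and 40.4, 44.3 and 29.1 CPM in regain, against 0.382 to 3.47 CPM in control12 and 16.2 to 30.1 CPM in gain4. Egr2 and F7 rose in the first exposure (2.31 and 3.70) and started the re-feeding step above the level that exposure reached. Against the normal diet step, 0 genes differed at an adjusted p under 0.05 in edgeR's test, where the smallest adjusted p was 0.99992. At an unadjusted p under 0.05, 643 did (2.45% higher and 1.16% lower), and DESeq2 called 14. In edgeR's test no gene's re-feeding difference could thus be told from its change over the same weeks on normal diet.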

How the data were processed

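The labels' protocols describe TruSeq libraries of RNA from epididymal fat. The submitters' processing notes list Trimmomatic 0.33 for trimming, TopHat2 2.0.13 for alignment, HTSeq 0.6.0 for counting, and the mm10 (GRCm38) build. Annotation and strand setting: not given in the sources used here. Genes that overlap on opposite strands may therefore share reads. The authors' deposited table holds raw read counts per gene, with 43460 names once 156 identical repeats of a row were dropped. The deposited FPKM were used only in alternatives.

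All 27 libraries entered 1 edgeR 4.0.16 model (R 4.3.3) with a mean per group, TMM scaling, filterByExpr (minimum count 10, minimum total 15) and the quasi-likelihood test. Each comparison had its own Benjamini-Hochberg adjustment, with calls at an adjusted p under 0.05. The SE is the fold change divided by the root of its F statistic. For a single value, 3 libraries against 3 allow an exact permutation p of 0.1 at the lowest. Between the 6 libraries, replicates differed by more than counting noise (chi-square per degree of freedom 61.4 to 356). Same-numbered loss and regain libraries did not pair (correlations -0.09, -0.16 and 0.10).

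Named genes are a fixed set of markers, up to 4 members of a described list with the smallest p, and up to 6 genes per direction with the smallest p and at least 5 CPM in a group in the differences of steps. A rule for up to 10 called genes per direction named none, since no gene was called. Genes and lists were chosen with earlier results of these data known. The steps were tested on simulated data. The alternatives tried were DESeq2 1.42.0, no filter, RLE scaling, only the compared groups, a replicate block, a Lars2 term (above 1000 CPM), limma 3.58.1 on log2(FPKM + 1) and log2(FPKM + 0.1), and each library left out. Leaving out loss replicate 1 and regain replicate 3 together, the gain8 lists and the interferon motifs were added after seeing the data. One member of a list is not reported here by name.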

Additional observations from a re-analysis of the deposited data

How the results depend on the processing

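The count of 0 genes called between regain and loss also held under RLE scaling, no filter, only the groups compared, the replicate block (1362 genes at an unadjusted p under 0.05), and with loss replicate 1 and regain replicate 3 both left out. DESeq2 called 174, limma 7 on log2(FPKM + 1) and 2 on log2(FPKM + 0.1), and the Lars2 term 1. With 1 library left out the count ran from 0 to 103. It was 103 without regain replicate 2 (101 higher), 11 without loss replicate 2, 9 without regain replicate 1, and 0 without each of the others. The first exposure called 2487 genes, 230 when only its groups were fitted and 1604 in limma on log2(FPKM + 1), and 678 to 2069 with 1 library left out (678 without control12 replicate 3, 953 without control12 replicate 2, 1273 without gain4 replicate 2). The normal diet step called 0, and 36 in DESeq2. The difference from the first exposure called 0, 274 in DESeq2, 2 in limma on log2(FPKM + 1), and 0 to 48 with 1 library left out (48 without loss replicate 2, and 1 each without loss replicate 3, regain replicate 1 and regain replicate 2). The difference from the normal diet step called 0, and 14 in DESeq2. With loss replicate 1 and regain replicate 3 both left out, Ucp1 turned from 3.18 to -0.25 and Clec4d from -2.10 to 0.15. Named genes with an unadjusted p over 0.05 also turned sign there, among them Il1rn (-0.10 to 1.20), Trem2 (-0.02 to 0.53), Cd68 (-0.14 to 0.36) and Egr2 (-0.57 to 0.17). The cause was not tested.

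The fold changes of Cck and Cxcl13, both under 1 CPM in every loss library, depend on the prior count. Where 1 library is left out, the remaining 2 are assumed to vary like the other groups.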

Other observations

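Some genes outside the lists were called in alternative fits alone, and were chosen after their values were seen. C130026I21Rik was called by DESeq2, by limma on both FPKM scales and with the Lars2 term. EdgeR also called it without loss replicate 2, without regain replicate 1 and without regain replicate 2. It was at 1.36, 1.81 and 0.860 CPM in the loss libraries and at 7.86, 5.76 and 11.1 CPM in the regain libraries (2.61 ± 0.44, adjusted p = 0.108 in edgeR, and 2.34 to 2.89 when 1 library was left out). It also rose in the first exposure, by 2.58. Ms4a4c, a tetraspan membrane protein of myeloid and lymphoid cells, was at 1.40, 1.04 and 0.761 CPM against 4.83, 2.28 and 7.44 CPM, all regain libraries above all loss libraries.

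Genes of the oxidative stress response lay high in loss replicate 1. Srxn1, which repairs oxidised peroxiredoxins, was at 586, 75.2 and 131 CPM in loss and 96.1, 71.1 and 83.6 CPM in regain, and Gclc, of glutathione synthesis, at 92.4, 25.1 and 41.6 CPM against 22.5, 28.3 and 25.6 CPM. Both were called lower by DESeq2 and without loss replicate 2. Without loss replicate 1 the differences were -0.30 for Srxn1 and -0.38 for Gclc, against -1.66 and -1.06 with all libraries. Hoxb4, a homeobox factor, was below loss in every regain library, at 6.85, 7.83 and 9.79 CPM against 4.12, 4.93 and 3.63 CPM (-0.95 ± 0.21, adjusted p = 0.125), and its difference ran from -1.08 to -0.79 when 1 library was left out.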
